A study of Mus musculus with 12 samples.

Results

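The 34 genes described here encode the enzymes, carriers and regulators with which a cell takes up fatty acids, activates them, oxidises them in mitochondria and makes ketone bodies. They were chosen by symbol from a list and are 34 of the 46517 genes counted in each sample. Their RNA was followed in epithelial cells of the mouse colon, from wild-type (WT) mice and from mice lacking Nfkb2 (Nfkb2-/-, called KO below), with and without injury of the colon by dextran sulfate sodium (DSS). By role the list holds 1 ketone body enzyme (Bdh1), 4 proteins of the carnitine shuttle (Cpt1a, Cpt2, Slc25a20, Crat), 9 enzymes of the beta-oxidation cycle (Acadm, Acadl, Acadvl, Acads, Hadha, Hadhb, Hadh, Acaa2, Ehhadh) and 3 auxiliary enzymes for unsaturated chains (Decr1, Eci1, Eci2). The others are 3 proteins of electron transfer (Etfa, Etfb, Etfdh), 6 of fatty acid activation and import (Acsl1, Acsl3, Acsl5, Slc27a2, Slc27a4, Cd36), 2 fatty acid binding proteins (Fabp1, Fabp2), 3 classical targets of the PPAR receptors (Pdk4, Angptl4, Plin2) and 3 regulators (Ppara, Pparg, Ppargc1a).

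Long-chain fatty acids are joined to coenzyme A by acyl-CoA synthetases, pass the inner mitochondrial membrane as carnitine esters, and are shortened by repeated rounds of dehydrogenation, hydration, a further dehydrogenation and thiolysis. Electrons from the acyl-CoA dehydrogenases reach the respiratory chain through the electron transfer flavoprotein and its dehydrogenase. Colonocytes are known for burning butyrate, a short-chain fatty acid made by gut bacteria, through this pathway, and PPAR nuclear receptors are known activators of many of its genes.

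All mice carried the C57BL/6 strain label and were 7 to 9 weeks old, and the 12 samples form 4 groups of 3: untreated WT, WT given DSS for 48 h, untreated KO, and KO given DSS for 48 h. Nfkb2 encodes an NF-kB family protein, and neither the kind of Nfkb2 allele nor littermate status is given in the labels. DSS is a sulfated polysaccharide that damages the colonic epithelium. Cells were shaken off pieces of colon with EDTA, and typically 90% of them lacked CD45.2 and carried EpCAM, per the labels. The design text calls the 3 samples of a group biological replicates without saying that each is 1 animal, so p-values measure the spread between these samples. The library numbers in the labels run in sequence through WT and then through KO, so an effect of genotype and one of that order cannot be told apart.

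Total counts were 5595909 to 8117740 per sample, and 3 counts, taken as the floor of detection, correspond to 0.370 to 0.536 CPM (counts scaled to the size of the library). Nfkb2 RNA was 30.8 to 46.1 CPM in the 6 WT samples and 11.7 to 19.6 CPM in the 6 KO samples, with no overlap. All 10 epithelial markers were detected in a sum of 25385 to 36817 CPM. The summed level of 6 markers of mature colonocytes (Car1, Car4, Aqp8, Slc26a3, Guca2a, Krt20) was 11153 to 12472 CPM in the untreated WT samples and 2899.7 to 3094 in those given DSS. In KO samples it was 6940.3 to 7571 without and 2952 to 3538 with DSS. The summed level of 17 leukocyte markers was 16.8 to 34.1, 60.0 to 65.6, 78.9 to 95.0 and 130.04 to 184.7 CPM in the same order of groups. That of 10 stroma and muscle markers was 2.47 to 5.58, 6.13 to 7.01, 7.54 to 11.8 and 13.6 to 16.9 CPM. Enteroendocrine markers, 5 in number, summed to 68.8 to 92.7, 48.3 to 59.5, 99.3 to 124 and 73.7 to 92.7 CPM. For 5 tuft cell markers the sum was 18.2 to 30.9, 9.30 to 14.9, 7.72 to 11.7 and 14.1 to 22.2 CPM. The sum of 7 goblet cell markers was 18849 to 29947, 15164 to 17514, 13779 to 15157 and 26746 to 30690 CPM, and that of 4 stem cell markers 33.7 to 93.2, 19.5 to 25.2, 84.4 to 94.7 and 14.3 to 22.5 CPM. Of the adipocyte markers, 5 of 7 (Adipoq, Plin1, Lep, Retn, Cfd) were at 0 in every sample. The other 2 (Cidec, Car3) summed to 2.78 to 6.70, 0.267 to 2.61, 1.66 to 2.93 and 0.890 to 3.36 CPM. Of the small intestinal markers, 3 of 8 (Lct, Apoa4, Apoa1) were at 0 in every sample. The other 5 summed to 254 to 378, 124 to 153, 237 to 262 and 154 to 188 CPM in the 4 groups. In RNA from a mass of cells, fewer cells of a type and less RNA per cell cannot be told apart.

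Of the 34 genes, 31 had enough counts to be tested. Fabp1, the liver type fatty acid binding protein, had 0 counts in all 12 samples. Cd36, a fatty acid receptor of the cell surface, had 1 count in WT untreated 1 and 0 elsewhere. Angptl4, a secreted inhibitor of lipoprotein lipase, had 0 to 7 counts per sample. A count of 0 allows up to 3 counts in that sample, which covers counting error only.

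Divided by the length of annotated exon, the levels in untreated WT cells covered more than 2 orders of magnitude. Etfa, the alpha subunit of the electron transfer flavoprotein, stood highest at 222 CPM per kilobase (range 202 to 251), and its range overlapped that of Acadl, the long-chain acyl-CoA dehydrogenase, at 204 (164 to 237). Acads, the short-chain dehydrogenase that takes butyryl-CoA, followed at 139.7 (121.8 to 150.8) and overlapped Acaa2, the mitochondrial thiolase, at 134 (123 to 150.1). Neither of these 2 overlapped the pair above. From Fabp2, the intestinal fatty acid binding protein, at 91.3 down to Slc25a20, the carnitine-acylcarnitine carrier, at 48.9 CPM per kilobase, neighbours among these 13 genes overlapped. The lowest tested were Pdk4, a kinase that inhibits pyruvate dehydrogenase, at 3.60, Acsl1, a long-chain acyl-CoA synthetase, at 3.09, Ppara at 2.62 and Slc27a2, a very long-chain acyl-CoA synthetase and transporter, at 1.56 CPM per kilobase. Ppara, the receptor best known for driving this pathway in liver, thus lay well below Pparg, its relative, at 57.7 CPM per kilobase.

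**Figure D1:**
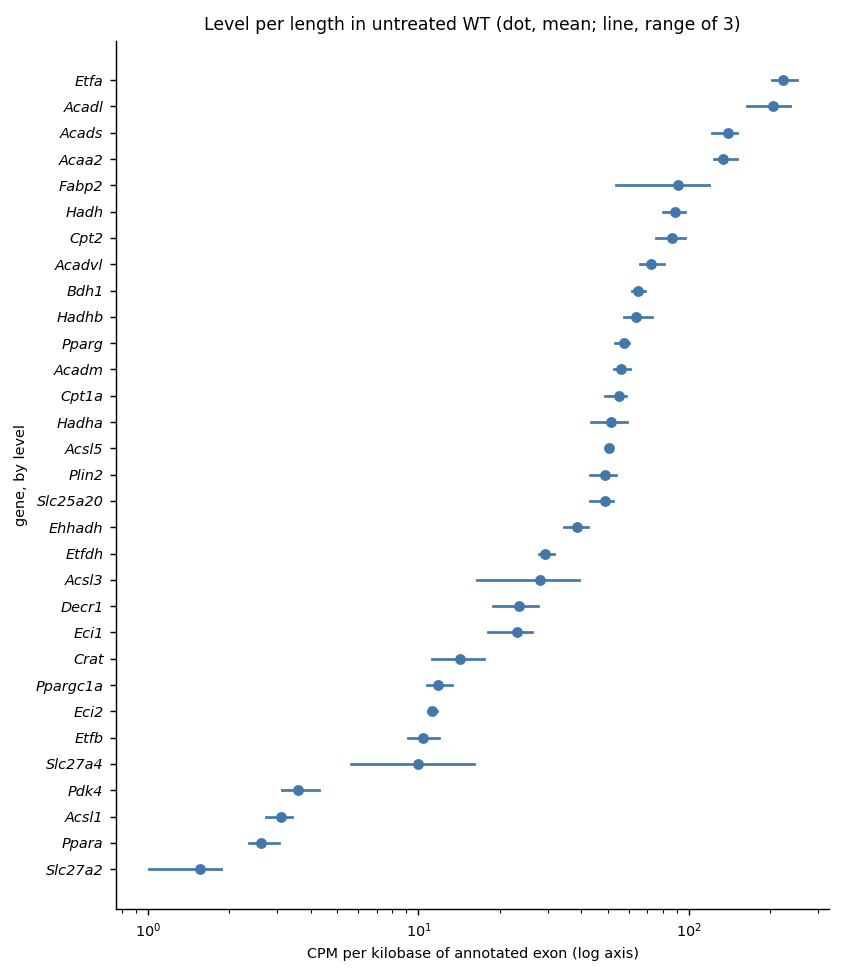
Level of the 31 tested genes in untreated WT cells, as CPM per kilobase of annotated exon on a log axis; the dot is the mean of 3 samples and the line runs from the lowest to the highest sample. Etfa is highest with a mean of 222 and Slc27a2 lowest with 1.56, and the lines of most neighbours in the order overlap.

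PPAR receptors bind, together with RXR, direct repeats of a hexamer with a spacer of a single base, so the 250 bases before the RefSeq start of each gene (GRCm38.p6) were searched for AGGTCANAGGTCA on both strands with up to 2 mismatches. A window was at hand for 30 members, all but Decr1, Crat, Acaa2 and Angptl4, and 4 of them held a match (Plin2, Etfa, Fabp1 and Cd36), which is 13.3% against 3.72% of 27025 genes. TATAAA, searched on the gene's own strand without mismatch, was found in Fabp1 only among the members and in 8.94% of all genes, and these letters do not overlap the repeat there. A match is a description of letters and not a measured binding site. Of the windows below, those of Fabp2 and Plin2 are shown because these genes had the smallest adjusted p among the fatty acid binding proteins and among the PPAR targets, and those of Etfa and Fabp1 were added after the matches had been seen, as the member with the highest mean level per length and a member with no counts. Each is written 5′ to 3′ on the gene's strand and ends at the base before the start, with matched letters in capitals. All 3 repeats match on the opposite strand, so that their capitals are the reverse complement of the repeat.
Fabp2 chr3:122894822-122895071 (plus strand, no match): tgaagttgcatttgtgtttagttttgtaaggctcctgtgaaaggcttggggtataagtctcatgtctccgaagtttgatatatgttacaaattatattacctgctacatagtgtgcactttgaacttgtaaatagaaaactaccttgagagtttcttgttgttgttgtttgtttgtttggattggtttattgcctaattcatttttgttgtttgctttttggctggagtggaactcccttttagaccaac
Plin2 chr4:86670060-86670309 (minus strand, repeat with 2 mismatches): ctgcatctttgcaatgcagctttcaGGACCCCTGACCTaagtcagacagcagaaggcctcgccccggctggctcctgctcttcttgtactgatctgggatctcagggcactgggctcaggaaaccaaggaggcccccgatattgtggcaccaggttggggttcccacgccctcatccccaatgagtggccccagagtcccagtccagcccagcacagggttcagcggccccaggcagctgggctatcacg
Etfa chr9:55512244-55512493 (minus strand, repeat with 2 mismatches): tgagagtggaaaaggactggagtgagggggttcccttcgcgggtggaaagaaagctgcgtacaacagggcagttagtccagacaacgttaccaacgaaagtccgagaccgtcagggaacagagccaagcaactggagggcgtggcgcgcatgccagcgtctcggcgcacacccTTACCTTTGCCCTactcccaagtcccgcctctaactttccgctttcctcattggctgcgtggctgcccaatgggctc
Fabp1 chr6:71199629-71199878 (plus strand, repeat with 1 mismatch, then TATAAA): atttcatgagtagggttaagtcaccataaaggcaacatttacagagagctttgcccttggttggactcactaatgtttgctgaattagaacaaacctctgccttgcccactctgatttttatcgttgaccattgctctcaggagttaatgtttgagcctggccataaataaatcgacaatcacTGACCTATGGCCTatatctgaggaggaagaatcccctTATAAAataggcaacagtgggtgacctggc
The repeat lies 225 to 213 bases before the start in Plin2, 77 to 65 in Etfa and 67 to 55 in Fabp1. Etfa, at the top of the order of levels, and Fabp1, with no counts, thus both hold a match in these windows. Fabp2, with the largest DSS change of the list, holds none.

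The first comparison asked how WT cells under DSS differed from untreated WT cells. In edgeR's quasi-likelihood test over all 12522 tested genes, 9 of the 31 members passed at an adjusted p under 0.05, 8 lower and 1 higher under DSS. This is 29.0% of the members against 6.3% of all genes tested in either direction, 3.5% lower and 2.8% higher. The members were chosen with earlier results of these data known. This share and those below are therefore a description and not an unbiased comparison with all genes. The median log2 fold change (log2FC below) was -0.24 over the members and 0.01 over all genes, and 24 of 31 members had a negative value. Without an overlap between the groups, 14 members were lower and 2 higher, against 9.96% and 10.7% of all genes. The members that fell were the intestinal fatty acid binding protein, the receptor Pparg, and a set of beta-oxidation and electron transfer enzymes, and the one that rose was the lipid droplet protein Plin2.

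Fabp2 (ENSMUSG00000023057.5, chr3:122895072-122899506 on GRCm38), which carries absorbed fatty acids through the cytoplasm of enterocytes, had 114, 98.1 and 52.1 CPM in the 3 untreated WT samples and 18.2, 18.0 and 21.2 under DSS. All DSS samples lay far below the lowest untreated one, while the untreated samples themselves were spread widely, with WT untreated 3 well below the others. The fall was 4.60-fold, a log2FC of -2.20 (SE 0.27, edgeR adjusted p = 0.000102).

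Pparg (ENSMUSG00000000440.11, chr6:115360951-115490399), a lipid-sensing nuclear receptor abundant in colonic epithelium, had 157, 178 and 176 CPM untreated and 75.8, 84.3 and 80.1 under DSS. The groups were tight and far apart. The log2FC was -1.09 (SE 0.13, edgeR adjusted p = 0.000120), a 2.13-fold fall. Its relatives did not pass: Ppara had 9.04, 9.35 and 11.7 CPM untreated and 6.68, 5.07 and 8.48 under DSS (edgeR adjusted p = 0.461). Ppargc1a, a coactivator that promotes mitochondrial gene expression, had the opposite sign at 0.42 (SE 0.13, edgeR adjusted p = 0.0734), with all 3 DSS samples above all 3 untreated ones.

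Of the 9 beta-oxidation enzymes, 4 fell in WT under DSS, and the log2FC values of these 4 lay between -0.46 and -0.38. Acaa2, the thiolase that releases acetyl-CoA in the last step of the cycle, had 228, 187 and 195 CPM untreated and 142, 151 and 149.9 under DSS (log2FC -0.46, SE 0.10, edgeR adjusted p = 0.0128). Acads, the short-chain acyl-CoA dehydrogenase, had 342, 333 and 276 CPM and 266, 238 and 216 (log2FC -0.40, SE 0.10, edgeR adjusted p = 0.0323). In both, each DSS sample was below each untreated sample, for Acads by a small gap between WT untreated 3 and WT DSS 1. Acadm, the medium-chain dehydrogenase, had 236, 207 and 216 CPM untreated and 175, 164 and 166 under DSS (log2FC -0.38, SE 0.10, edgeR adjusted p = 0.0331). Acadvl, the very long-chain dehydrogenase, had 217, 189 and 177 CPM and 156, 144 and 149 (log2FC -0.38, SE 0.10, edgeR adjusted p = 0.0404). Neither gene's groups overlapped, and in both the highest untreated sample was WT untreated 1. Acadl, by contrast, had a log2FC of 0.01 (SE 0.12, edgeR adjusted p = 0.984). Acadvl shares 42.9% of its exon length with Dvl2, a neighbour counted at 30 to 87 reads per sample beside 903 to 1490 for Acadvl, so the split of reads between them is uncertain.

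In electron transfer, 2 of 3 members fell. Etfa had 460.4, 391 and 371 CPM untreated and 292, 316 and 295 under DSS (log2FC -0.44, SE 0.10, edgeR adjusted p = 0.0181). Etfdh, the dehydrogenase that passes electrons from the flavoprotein to ubiquinone, had 238, 215 and 209 CPM untreated and 176, 175 and 168 under DSS (log2FC -0.35, SE 0.09, edgeR adjusted p = 0.0298). Every DSS sample was below every untreated sample in both genes. Etfb, the beta subunit, was counted at only 34 to 109 reads per sample and did not pass (edgeR adjusted p = 0.775). Of its exon length 53.0% overlaps another annotated gene, which had 0 to 1 counts. How reads of the shared part were counted is not known, so the counts of Etfb and its level per length are uncertain.

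Plin2 (ENSMUSG00000028494.11, chr4:86648386-86670060), which coats lipid droplets, had 189, 176 and 152 CPM in untreated WT and 226, 226 and 217 under DSS. The DSS samples lay close together above all untreated ones. The log2FC was 0.37 (SE 0.10, edgeR adjusted p = 0.0394).

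These WT calls differed in how many of the fits without 1 sample they passed. KO samples are not part of this comparison but share the estimate of the spread with it. Where a call was lost without 1 KO sample, the log2FC stayed at -0.38 for Acadvl and 0.37 for Plin2. Such losses therefore do not show that a change rested on that sample. Fabp2 and Pparg passed in all 12 fits that left out 1 sample each. Acaa2 missed the threshold without WT DSS 1 (edgeR adjusted p = 0.0741), and Etfa missed it without WT untreated 1 (0.0669), WT DSS 1 (0.0874) or WT DSS 3 (0.0797). Acadm passed in 7 of the 12 fits and missed the threshold without WT untreated 1, KO untreated 3 or any of the 3 WT DSS samples. Acads passed in 6 and missed it without WT untreated 1 or 2, WT DSS 2 or 3, KO untreated 3 or KO DSS 2. Etfdh passed in 6 and missed it without WT untreated 1 or 2, KO untreated 3 or any WT DSS sample. Acadvl passed in 2, without WT untreated 3 or KO DSS 3, and Plin2 in 1, without WT untreated 1. The highest adjusted p over these fits was 0.131 for Acadm, 0.160 for Acads, 0.122 for Etfdh, 0.155 for Acadvl and 0.136 for Plin2. The number of members passing fell to 3 without WT DSS 1 or 3, to 4 without WT DSS 2, WT untreated 1 or KO untreated 3, and to 5 without WT untreated 2. All genes passing fell too, from 789 to 483, 523 and 512 without WT DSS 1, 2 and 3. They were 633 and 628 without WT untreated 1 and 2, and 671 without KO untreated 3. Without WT untreated 3, 958 genes and 11 members passed. Plin2 was not among these 11, which now also held Cpt2 (edgeR adjusted p = 0.0377), Hadha (0.0363) and Ppargc1a (0.0334).

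Markers of several cell types moved with the same comparison, as given above. The leukocyte sum and the stroma and muscle sum were higher under DSS. The colonocyte, goblet, stem cell, enteroendocrine, tuft and small intestinal sums were lower, and none of these sums overlapped between the groups. Of the markers tested, 6 of 6 for colonocytes, 1 of 7 for goblet cells and 1 of 4 for stem cells passed as lower. So did 1 of 4 for enteroendocrine cells, 1 of 3 for small intestine, 1 of 10 for epithelium and the 1 for adipocytes. Of the leukocyte markers 5 of 10 passed as higher, and neither of the 2 tested for stroma and muscle passed. The summed leukocyte level did not overlap between any of the 4 groups, and neither did that of stroma and muscle. A covariate built from the leukocyte markers can therefore hardly be told apart from the groups. No conclusion is drawn from calls kept or lost with it, here or below. With the mean log2 CPM of the leukocyte markers that could be tested as a covariate, 1 of the 9 members passed: Fabp2 (log2FC -3.78, edgeR adjusted p = 0.00115). Pparg then had -0.998 (edgeR adjusted p = 0.188) and Plin2 0.04 (edgeR adjusted p = 0.962). The 6 enzymes missed the threshold at log2FC values no smaller in size than before to 2 decimals: Acads -0.80, Etfa -0.64, Etfdh -0.52, Acadvl -0.51, Acadm -0.48 and Acaa2 -0.46, with edgeR adjusted p from 0.124 to 0.427. The part of the cell type markers in these changes was not tested.

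**Figure D2:**
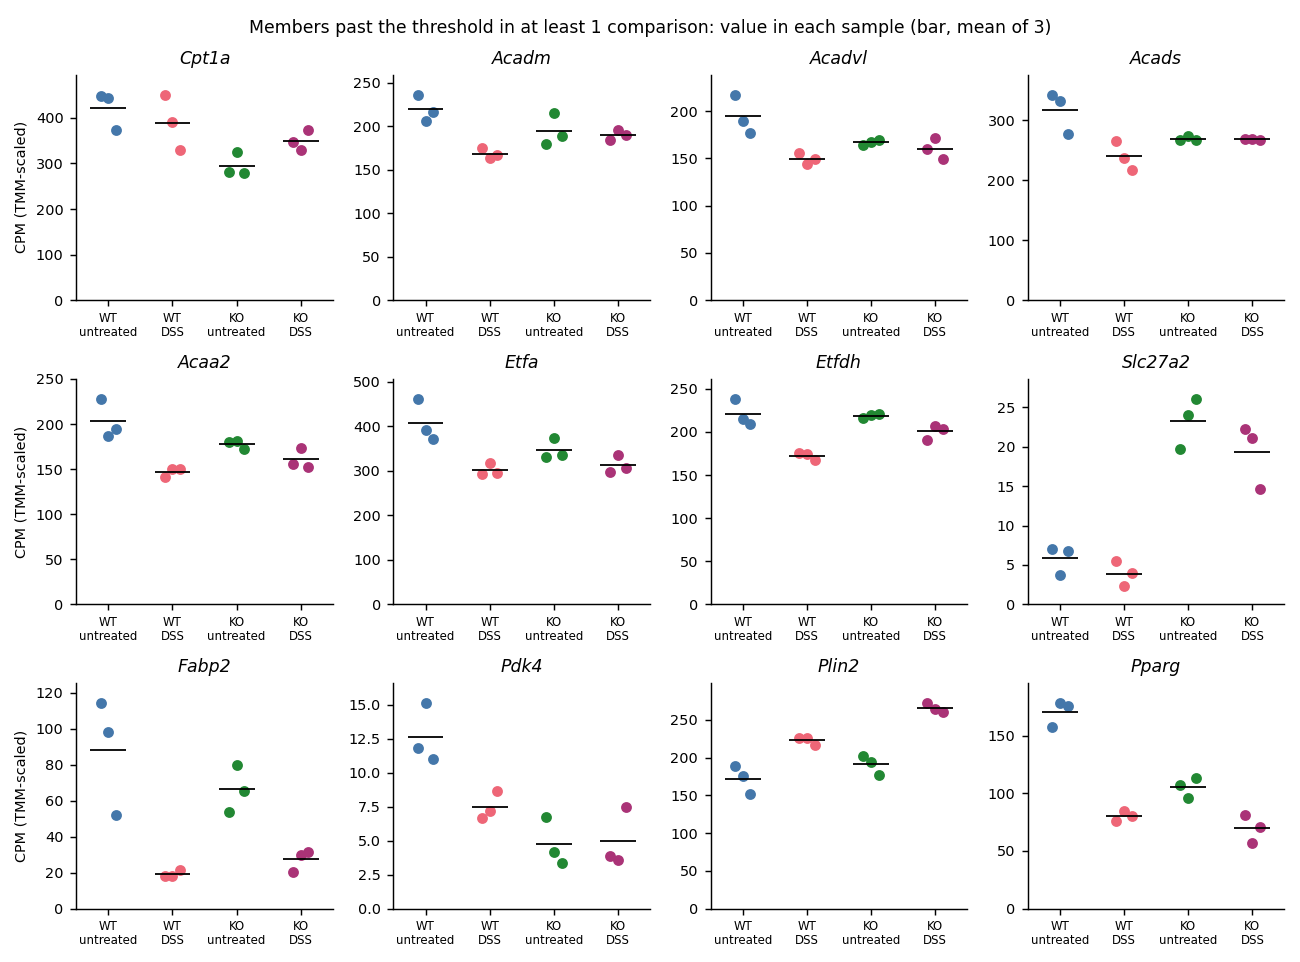
CPM of the 12 members that passed in at least 1 comparison, in each of the 12 samples, with a bar at the mean of 3; each vertical axis starts at 0. Fabp2 and Pparg are lower under DSS in both genotypes, Plin2 is higher, and Slc27a2 is high in all 6 KO samples.

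The second comparison was the same DSS treatment in KO cells, with its own untreated controls. Here 3 of 31 members passed, 2 lower and 1 higher, which is 9.68% against 3.92% of all genes, 2.04% lower and 1.88% higher. The members that passed were Fabp2, Pparg and Plin2, with the same directions as in WT. The median log2FC was -0.06 over the members and 0.02 over all genes, and 21 of 31 members had a negative value. The groups did not overlap in 6 members that were lower and 3 that were higher, against 12.3% and 12% of all genes.

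Fabp2 had 53.9, 79.7 and 65.6 CPM in untreated KO and 20.5, 29.8 and 31.7 under DSS. The untreated KO samples lay within the range of the untreated WT samples, and all DSS samples were below them. The fall was 2.42-fold (log2FC -1.28, SE 0.26, edgeR adjusted p = 0.0120).

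Pparg had 107, 95.8 and 113 CPM untreated and 81.3, 56.5 and 70.4 under DSS (log2FC -0.60, SE 0.13, edgeR adjusted p = 0.0202). Untreated KO cells already lay between untreated WT cells and WT cells under DSS, without overlap with either. Plin2 had 202, 195 and 177 CPM untreated and 272, 264 and 261 under DSS (log2FC 0.47, SE 0.10, edgeR adjusted p = 0.0159). The 3 KO samples under DSS were the highest Plin2 values among all 12 samples.

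No beta-oxidation enzyme passed in KO in edgeR over all 12 samples or in DESeq2, 1 of them (Acadl) had an unadjusted p under 0.05, and 6 of the 9 had a negative log2FC and their median was -0.03. Acads had 267, 273 and 268 CPM untreated and 269, 269 and 267 under DSS, with an SE of the log2FC of 0.10 and an edgeR adjusted p = 0.994. Acadl had the highest value of the 9 at 0.36 (SE 0.12, edgeR adjusted p = 0.118), and all its DSS samples lay above all untreated ones. In the edgeR fit of the 6 KO samples alone it passed (0.37, edgeR adjusted p = 0.0185). Acsl1 came closest to the threshold among those that missed it, with 35.7, 34.1 and 31.6 CPM untreated and 23.5, 25.7 and 22.4 under DSS (log2FC -0.50, SE 0.15, edgeR adjusted p = 0.0939). Its groups did not overlap.

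In KO too the leukocyte sum and the stroma and muscle sum were higher under DSS. The colonocyte, stem cell, enteroendocrine and small intestinal sums were lower. The goblet and tuft sums were higher, with 3 of 7 goblet markers passing. Of the markers tested, 6 of 6 for colonocytes, 3 of 4 for stem cells and 1 of 10 for epithelium passed as lower. Of the leukocyte markers 1 of 10 passed as higher. None passed for stroma and muscle, enteroendocrine cells, tuft cells or small intestine. The part of these markers in these changes was not tested. Each of the 3 KO calls could be lost with 1 sample. Fabp2 missed the threshold without KO untreated 2 (edgeR adjusted p = 0.0580) or KO DSS 1 (0.0589). Pparg missed it without KO untreated 1 (0.0689), KO untreated 3 (0.0954), KO DSS 2 (0.0889) or KO DSS 3 (0.0620). Plin2 missed it without KO untreated 2 (0.0600), KO untreated 3 (0.0962), KO DSS 1 (0.0623) or KO DSS 2 (0.0622). Only 1 member passed without KO untreated 2 or 3 or KO DSS 1 or 2. All genes passing fell from 491 to 235, 241, 302 and 250 in these fits. Without WT untreated 3, 4 members and 710 genes passed, now also Acadl (0.36, edgeR adjusted p = 0.0180). With the leukocyte covariate Fabp2 stayed past the threshold (log2FC -2.23, edgeR adjusted p = 0.00453), while Pparg (-0.55, edgeR adjusted p = 0.280) and Plin2 (0.28, edgeR adjusted p = 0.417) did not.

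**Figure D3:**
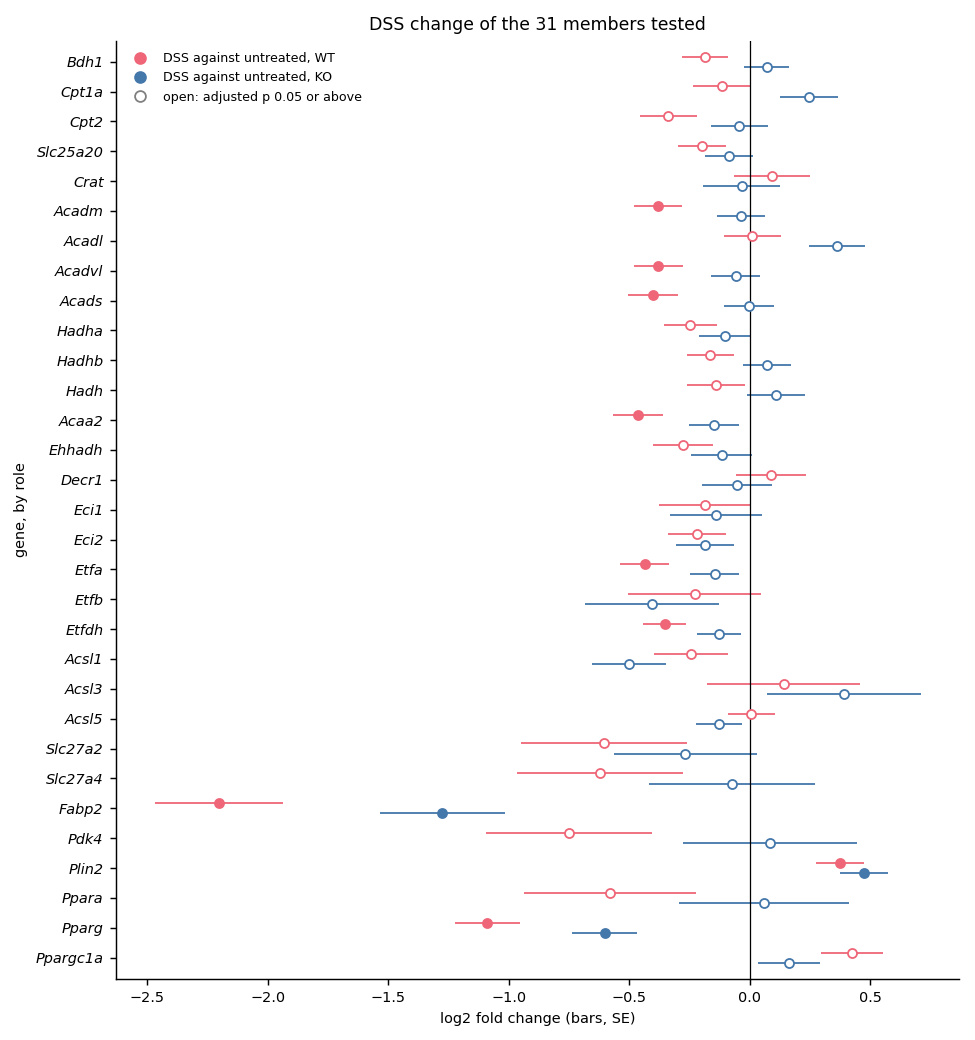
Log2 fold change of DSS against untreated for the 31 tested members in WT (red) and KO (blue), with bars of 1 SE; filled points have an edgeR adjusted p under 0.05. In WT 8 members are filled to the left of 0 and 1 to the right, and in KO the filled points are Fabp2, Pparg and Plin2.

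Whether the DSS change itself differed between the genotypes was tested by the interaction, the DSS change in KO minus that in WT. None of the 31 members passed in edgeR, against 1.7% of all genes, 1.17% higher and 0.527% lower, and none passed in DESeq2. At an unadjusted p under 0.05 there were 6 members: Fabp2 with an interaction of 0.93, Pparg with 0.49, Acads with 0.40, Acadm with 0.35, Acaa2 with 0.32 and Acadvl with 0.32. Their edgeR adjusted p ranged from 0.297 to 0.457. No share of all genes at the unadjusted cut-off is given here, so these 6 are read as single values only. The interaction was positive in 25 of 31 members, 9 of 9 beta-oxidation enzymes among them, with a median of 0.25 against -0.01 over all genes. The enzymes share the same samples and are not independent counts. Of the goblet markers 2 of 7 passed in the interaction, and of the colonocyte markers 1 of 6, all higher, and their part was not tested. Without WT untreated 3, Acadl (0.49, edgeR adjusted p = 0.0493) and Fabp2 (1.19, edgeR adjusted p = 0.0367) passed, while all genes passing rose from 213 to 350. With the leukocyte covariate Fabp2 passed as well (1.55, edgeR adjusted p = 0.0240). The enzymes that passed in WT and not in KO are therefore not shown to respond differently in the 2 genotypes.

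The summed CPM of the 19 shuttle, cycle, auxiliary and electron transfer genes describes the same pattern without a test. In WT it was 4552 ± 495 (SD, n = 3) without DSS and 3885 ± 227 with it, and in KO 4019 ± 166 without DSS and 4073 ± 81.0 with it. The lowest untreated WT sample stood at 4056 and the highest WT sample under DSS at 4042, so the WT groups were barely apart. Both KO groups lay within the range spanned by the WT samples. The sums depend on the TMM scaling, in which a lower factor gives a higher CPM. The factors were 0.888, 0.940 and 1.03 in WT untreated 1, 2 and 3, whose sums were 5045.5, 4555 and 4056. In the other samples the factors were 1.00 to 1.04. The part of the scaling in the WT difference was not tested.

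**Figure D4:**
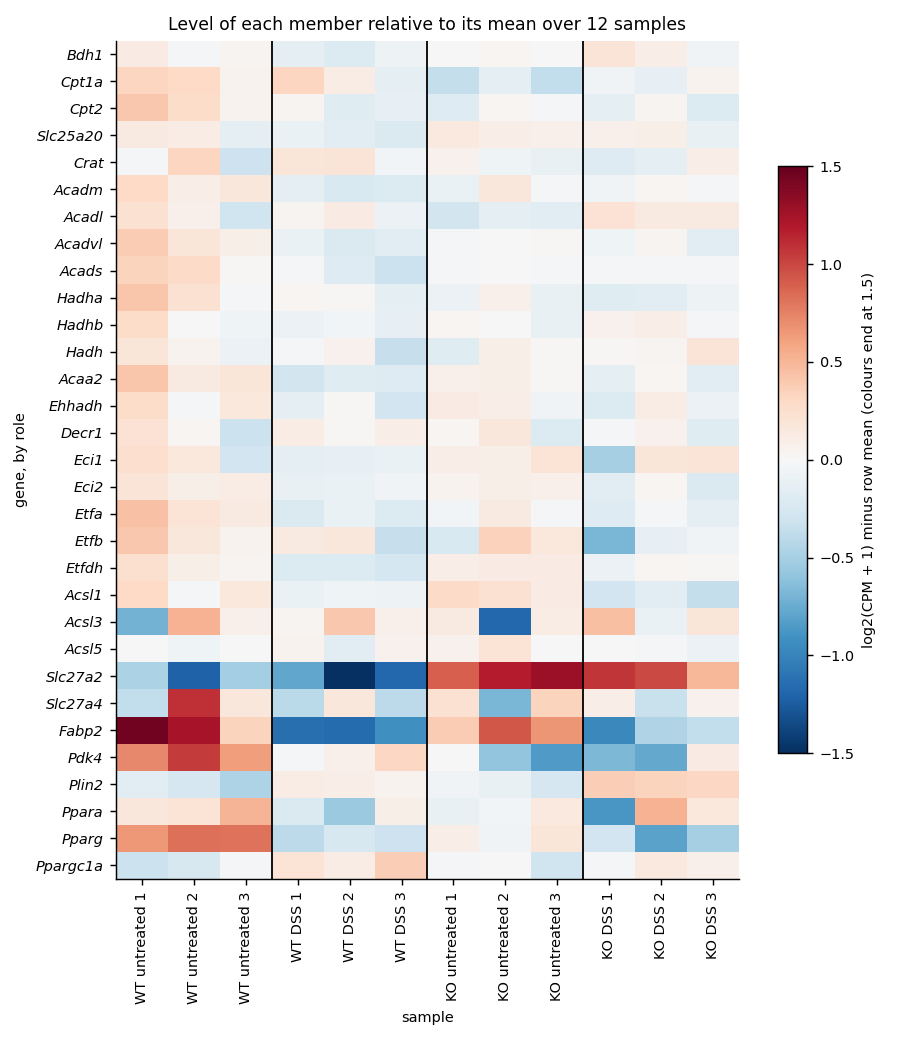
Level of each of the 31 tested members in each of the 12 samples, as log2(CPM + 1) minus the mean of the gene over all samples; colours end at 1.5 in either direction. WT untreated 1 is above the mean for most enzymes, and Slc27a2, Fabp2, Pparg and Pdk4 show the strongest contrasts between groups.

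The third comparison set untreated KO cells against untreated WT cells, the same untreated samples that served as controls above. Of 31 members, 4 passed, 1 higher and 3 lower in KO, which is 12.9% against 3.48% of all genes, 1.72% higher and 1.76% lower. The median log2FC was -0.11 over the members and -0.002 over all genes, and 23 of 31 members had a negative value. The groups did not overlap in 8 members that were lower and 1 that was higher in KO, against 9.52% and 9.81% of all genes.

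Slc27a2 (ENSMUSG00000027359.15, chr2:126552407-126588243), which activates and imports very long-chain fatty acids and is best known from liver and kidney, was the member that was higher. It had 7.00, 3.77 and 6.80 CPM in untreated WT and 19.7, 24.0 and 26.0 in untreated KO. Every KO sample was well above every WT sample, although the counts behind them were modest (17 to 219 over all 12 samples). The level was 3.95-fold higher in KO (log2FC 1.98, SE 0.32, edgeR adjusted p = 0.00284). Of its exon length 11.2% overlaps the annotated gene Gm26697, which had 0 counts in every sample.

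Pparg was lower in untreated KO, with 107, 95.8 and 113 CPM against 157, 178 and 176 in WT (log2FC -0.69, SE 0.13, edgeR adjusted p = 0.00831). Cpt1a, the carnitine acyltransferase of the outer membrane that limits the rate of entry into mitochondria, had 449, 443 and 374 CPM in WT and 281, 325 and 279 in KO (log2FC -0.52, SE 0.12, edgeR adjusted p = 0.0292). Pdk4 had 11.8, 15.1 and 10.97 CPM in WT and 6.73, 4.15 and 3.33 in KO (log2FC -1.42, SE 0.35, edgeR adjusted p = 0.0407). In Pparg, Cpt1a and Pdk4 the KO samples lay below the WT samples without overlap. For Pdk4 both WT and KO samples under DSS also lay below untreated WT, at 6.68, 7.20 and 8.64 and 3.89, 3.56 and 7.48 CPM, and neither DSS comparison passed.

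None of the 9 beta-oxidation enzymes passed in this comparison in edgeR or DESeq2. At an unadjusted p under 0.05 there were 3, and all 9 log2FC values were negative, from -0.26 to -0.07. The share of all genes at that cut-off is not given here. Cpt2, the inner membrane partner of Cpt1a, had 207 ± 25.0 CPM in WT and 167 ± 13.6 in KO (SD, n = 3; edgeR adjusted p = 0.191). Slc27a2 passed in all 12 fits without 1 sample. Pparg missed the threshold without KO untreated 2 (edgeR adjusted p = 0.0524), and Cpt1a missed it without KO untreated 1 (0.123), KO untreated 3 (0.137), WT untreated 1 (0.0857) or WT untreated 2 (0.105). Pdk4 passed in 5 of the 12 fits, with an adjusted p of up to 0.176, and missed the threshold without WT untreated 1 or 2, KO untreated 2 or 3 or any WT DSS sample. The WT DSS samples are not part of this comparison, and without each of them the log2FC of Pdk4 was -1.41. Only 2 members passed without WT untreated 1 or 2 or KO untreated 2 or 3. All genes passing fell from 436 to 329, 261, 236 and 212 in these fits. Without WT untreated 3, 725 genes and 6 members passed, Acadl (0.0350) and Hadha (0.0398) among them.

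Leukocyte markers were higher in untreated KO than in untreated WT, and 5 of the 10 that could be tested passed. With their mean log2 CPM as a covariate no member passed in edgeR. There 8 had an unadjusted p under 0.05, a count given without its share over all genes. Slc27a2 then had a log2FC of 2.86 (edgeR adjusted p = 0.172), Pparg -0.59 (0.478), Cpt1a -1.12 (0.108) and Pdk4 -2.77 (0.175). The colonocyte sum was lower in untreated KO, as given above, while of its 6 markers 1 passed as higher and 1 as lower. The goblet sum was lower as well, with 2 of 7 markers passing. The stroma and muscle sum was higher, with 1 of the 2 tested markers passing. The part of these markers in these differences was not tested.

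The fourth comparison set KO against WT when both had received DSS, and it shares its samples with the DSS comparisons. Only Slc27a2 passed, 1 of 31 members or 3.23% against 3.11% of all genes, 1.77% higher and 1.34% lower. It had 5.47, 2.27 and 3.91 CPM in WT under DSS and 22.3, 21.1 and 14.7 in KO under DSS. The lowest KO sample was well above the highest WT sample, as without treatment. The level was 4.99-fold higher (log2FC 2.32, SE 0.33, edgeR adjusted p = 0.00130), and it passed in all 12 fits without 1 sample and with the leukocyte covariate (log2FC 2.83, edgeR adjusted p = 0.0415).

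Under DSS 3 of 6 colonocyte and 3 of 7 goblet markers passed as higher in KO. So did 4 of 10 tested for leukocytes, 1 of 2 for stroma and muscle and 1 of 4 for enteroendocrine cells. Of the 10 epithelial markers 1 passed as lower. The colonocyte sums overlapped, at 2899.7 to 3094 CPM in WT and 2952 to 3538 in KO. The part of these markers was not tested. The median log2FC under DSS was 0.10 over the members and 0.003 over all genes, and 19 of 31 members had a positive value. In 9 members all KO samples lay above all WT samples and in 1 below, against 11.7% and 10.6% of all genes. Pparg, lower in untreated KO, had 80.0 ± 4.25 CPM in WT and 69.4 ± 12.4 in KO under DSS (SD, n = 3; edgeR adjusted p = 0.543). Fabp2 had a log2 difference of 0.52 (SE 0.27, edgeR adjusted p = 0.402) and Plin2 of 0.25 (SE 0.10, edgeR adjusted p = 0.240). Of these, Fabp2 overlapped between the genotypes and Plin2 did not.

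**Figure D5:**
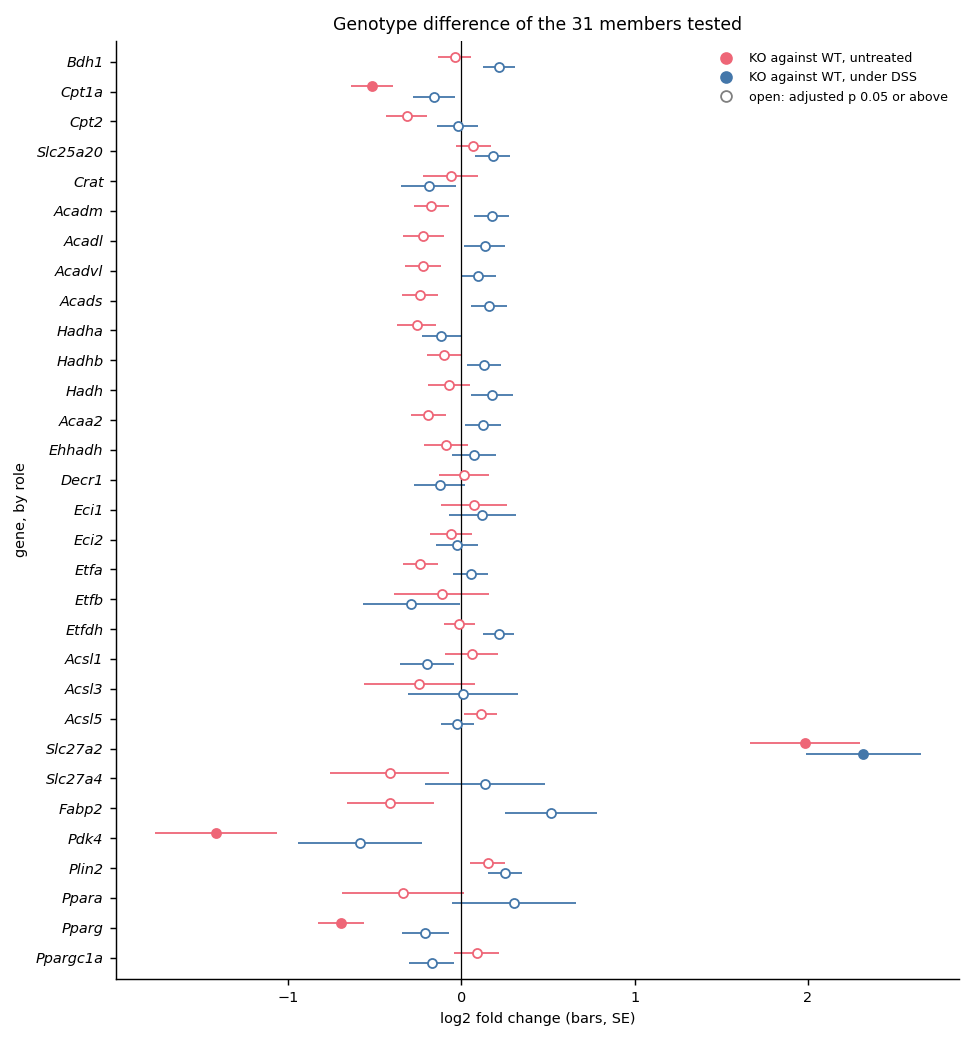
Log2 fold change of KO against WT for the 31 tested members, untreated (red) and under DSS (blue), with bars of 1 SE; filled points have an edgeR adjusted p under 0.05. Slc27a2 stands alone at the right in both conditions, and Pdk4, Pparg and Cpt1a are filled to the left in untreated cells.

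Over the 4 pairwise comparisons and the interaction, 12 members passed at least once, with 17 calls in 155 tests, and 19 tested members never passed. Among these 19, Bdh1, which converts acetoacetate to 3-hydroxybutyrate and is the only ketone body enzyme of the list, had 253 ± 13.9 CPM without and 222 ± 10.4 with DSS in WT, and 246 ± 2.47 without and 259 ± 22.1 with DSS in KO (SD, n = 3). Its smallest edgeR adjusted p over the 5 tests was 0.293. Its WT samples were lower under DSS without overlap, at a log2FC of -0.19 (SE 0.09), which edgeR did not call.

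In the carnitine shuttle, Cpt2 (150.2 to 230.4 CPM over all samples), Slc25a20 (198 to 255) and Crat, a carnitine acetyltransferase (60.6 to 94.3), never passed, with smallest edgeR adjusted p of 0.128, 0.345 and 0.665. In the beta-oxidation cycle the same held for Hadha and Hadhb, the subunits of the trifunctional protein that performs the later steps on long chains, and for Hadh, the short-chain hydroxyacyl-CoA dehydrogenase. Hadha ranged over 339 to 514 CPM, Hadhb over 364 to 481 and Hadh over 333 to 489, with smallest edgeR adjusted p of 0.257, 0.447 and 0.560. The genes of Hadha and Hadhb lie on chromosome 5 on opposite strands with 85 bases between their annotated ends. Ehhadh, the peroxisomal bifunctional enzyme, ranged over 85.5 to 126 CPM (smallest edgeR adjusted p 0.270), and Acadl over 329 to 474 (0.118). Some reads of Hadhb cannot be placed with certainty, since 19.7% of its 50-base words also occur in other annotated transcripts, and the gene that shares the most of them is Gm13910.

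Of the auxiliary enzymes, which rearrange double bonds so that unsaturated chains can enter the cycle, Decr1 ranged over 73.2 to 107 CPM, Eci1 over 33.1 to 56.1 and Eci2 over 48.6 to 64.7, and their smallest edgeR adjusted p were 0.773, 0.725 and 0.395. Eci2 was lower under DSS in both genotypes without overlap, at log2FC values of -0.22 in WT and -0.18 in KO, neither past the threshold. Acsl5, an acyl-CoA synthetase of the intestine, varied little (223 to 289 CPM, smallest edgeR adjusted p 0.596). Acsl3, a synthetase of the endoplasmic reticulum and lipid droplets, varied much more (51.9 to 171 CPM, 0.626), as did Slc27a4, the main fatty acid transporter of enterocytes (19.8 to 70.5 CPM, 0.398).

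A wider list of 103 genes of the same pathways gives the setting of these results, and 80 of them were tested. In WT under DSS 10 passed, 9 lower and 1 higher, which is 12.5% against the 6.3% of all genes given above. This list too was chosen with earlier results of these data known. In KO under DSS 1 passed (1.25% against 3.92% of all genes), in untreated KO against WT 2 (2.5% against 3.48%), in KO against WT under DSS 2 (2.5% against 3.11%) and in the interaction 1 (1.25% against 1.7%). These 4 shares lie below those of all genes, so the genes named from these comparisons are single values and not a result about the list. The medians of the list were -0.10, 0.01, -0.14, 0.01 and 0.12 in that order.

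In WT under DSS lower genes of short-chain acid metabolism included Acss1, which activates acetate in mitochondria (log2FC -0.69, SE 0.10, edgeR adjusted p = 0.000637), and Acsm3, a medium-chain acyl-CoA synthetase that also activates butyrate (-0.75, edgeR adjusted p = 0.000890). Lower peroxisomal genes were Abcd3, a transporter of the peroxisomal membrane (-0.44, edgeR adjusted p = 0.00430), and Phyh, which starts the breakdown of phytanic acid (-0.60, edgeR adjusted p = 0.0108). Mgll, monoglyceride lipase, had 14.1, 11.6 and 13.6 CPM untreated and 3.64, 3.20 and 3.26 under DSS (-1.96, edgeR adjusted p = 0.00145). Pdk1, a pyruvate dehydrogenase kinase, was the gene that rose, from 90.7, 82.0 and 86.8 CPM to 155, 148 and 155 (log2FC 0.82, edgeR adjusted p = 0.000698). Acad11, Pcca and Cidec, the last an adipocyte marker at low CPM above, fell as well, with edgeR adjusted p of 0.0191, 0.0400 and 0.0487. These 3 calls were the less stable ones: Acad11 passed in 8 of the 12 fits without 1 sample, and Pcca and Cidec in 4 each. The replicate block ended those of Pcca (0.0678) and Cidec (0.110), and without WT untreated 1 the log2FC of Pcca was -0.37 instead of -0.65. With the leukocyte covariate 9 of the 10 calls of the list in WT were lost, all but that of Phyh, with edgeR adjusted p of 0.578 for Acss1, 0.138 for Acsm3, 0.191 for Mgll, 0.259 for Abcd3 and 0.188 for Pdk1.

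In KO under DSS the gene that passed was Abcd3 (-0.38, edgeR adjusted p = 0.0181). Untreated KO cells had less Mgll (-1.61, edgeR adjusted p = 0.00968) than untreated WT cells. Mgll thus showed, like Pparg, lower values both in WT under DSS and in untreated KO, in comparisons that share the untreated WT samples. Under DSS, KO cells had more Acsm3 (0.48, edgeR adjusted p = 0.0395) than WT cells. Acsm3 passed in 3 of the 12 fits without 1 sample. Abcd3 in KO passed in 7 of them, with an edgeR adjusted p of up to 0.0896, and Mgll in untreated KO in 10. With the leukocyte covariate Abcd3 in KO (edgeR adjusted p = 0.170) and Mgll in untreated KO (0.295) no longer passed. Under DSS the leukocyte markers were higher in KO than in WT, and Acsm3 did not pass with their mean log2 CPM as a covariate.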

How the data were processed

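RNA of 12 samples of mouse colonic epithelial cells was copied by the SMART-seq2 method, which keeps no strand and no molecular identifiers, from 2 ng of total RNA, per the labels' protocols. The authors deposited whole-number counts of reads per Ensembl gene ID, not normalized as far as the values show. The submitters' processing notes name STAR 2.5.2b, featureCounts 1.5.0 and GRCm38/mm10. The annotation and the counting options are not given in the sources used here. Of 46517 IDs, 46005 matched GENCODE M21 without version. No pair of replicates agreed within sampling noise (chi-square per degree of freedom 6.86 to 29.5).

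From the counts, edgeR 4.0.16 in R 4.3.3 kept 12522 genes (filterByExpr, 99.8% of counts), scaled libraries by TMM, fitted 1 coefficient per group over all 12 samples and tested 5 contrasts by the two-sided quasi-likelihood F test. A gene passed at a Benjamini-Hochberg adjusted p under 0.05 over all genes tested. CPM are TMM-scaled. The test was checked on simulated counts. Depth sets a floor of 3 counts, for counting error only.

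Members and lists were chosen with earlier results of these data known. All members are accounted for, those that passed by their value in every sample. Of the wider list, genes that passed are named, apart from some results that are not reported here. Promoter windows of RefSeq (GRCm38.p6) are shown for members chosen by smallest adjusted p within role (Fabp2 and Plin2), with Bdh1, which passed nowhere, and Acaa2, with no window, left out, and 2 more added later. Alternatives were RLE size factors, no filter or at least 10 counts in every sample, DESeq2 1.42.0, a replicate block, only the groups compared, a leukocyte covariate (the mean log2 CPM of the leukocyte markers that passed the filter), and leaving out each sample. Deviations from group means correlated between same-numbered samples at 0.106 to 0.204 in KO, at 0.0138 to 0.128 in WT, and below 0 between genotypes. The labels do not say what a number marks, so a pairing for the DSS comparison in KO is a hint from the data only. The main test does not use a pairing.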

Additional observations from a re-analysis of the deposited data

Results flagged for a closer look

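Acss1, the mitochondrial acetyl-CoA synthetase and a gene of the wider list, stands out because its DSS change differed between the genotypes by the test of the interaction, at 0.65 on the log2 scale (SE 0.14, edgeR adjusted p = 0.0309). It had 280.4, 271 and 316 CPM in untreated WT and 185, 165 and 188 in WT under DSS. In KO it had 242, 242 and 226 CPM untreated and 228, 252 and 212 under DSS. The WT groups were far apart and the KO groups overlapped. The interaction passed in 4 of 12 fits without 1 sample, with an adjusted p of up to 0.113, and did not pass with the replicate block or the leukocyte covariate. Over all alternatives the adjusted p ranged from 0.00161 to 0.178, and it was tested as 1 of 80 genes of the list and 12522 in all.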

How the results depend on the processing

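No member call changed direction under any alternative. Of the 17 member calls, 17 passed with RLE size factors, 17 with at least 10 counts in every sample, 17 with DESeq2, 13 without a filter, 13 with the replicate block, 8 with only the groups compared, 3 with the leukocyte covariate, and 4 in every fit without 1 sample. Members passing in WT under DSS were 9 (789 of all genes), and 5 without a filter (1017), 1 with the leukocyte covariate (237) and 2 with only the groups compared (467). In KO under DSS they were 3, and 1 with the covariate. In untreated KO against WT they were 4, and 0 with the covariate (edgeR) and 2 with only the groups compared. In the interaction they were 0, and 1 with the covariate. The fits with only the groups compared hold 6 samples, and the leukocyte covariate can hardly be told apart from the groups. For the other shifts the cause was not tested.

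Over the fits without 1 sample the members passing ranged from 3 to 11 in WT under DSS, 1 to 4 in KO under DSS, 2 to 6 in untreated KO against WT, 1 to 1 under DSS and 0 to 2 in the interaction. All genes passing ranged from 483 to 958, 235 to 710, 212 to 725, 160 to 566 and 152 to 350. The high end was reached each time without WT untreated 3, the sample least like its replicates (Pearson r of 0.945 and 0.948 with them).

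All genes passing, in the same order, were 789, 491, 436, 390 and 213. In WT under DSS they were 1017 without a filter, 237 with the leukocyte covariate and 467 with only the groups compared. In KO under DSS they were 776 without a filter, 162 with the covariate and 800 with DESeq2. In untreated KO against WT they were 703 without a filter, 89 with the covariate, 195 with only the groups compared and 790 with DESeq2. In KO against WT under DSS they were 642 without a filter, 109 with the covariate and 661 with DESeq2. In the interaction they were 356 without a filter, 241 with the covariate and 360 with DESeq2.

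With the replicate number as a block, 6, 3, 3, 1 and 0 members and 695, 409, 345, 290 and 186 genes passed in the same order. This block gave each number a single effect shared by WT and KO. It thus did not model a pairing within each genotype, and same-numbered samples correlated below 0 between genotypes. The block ended the calls of Acadm (edgeR adjusted p = 0.0593), Acadvl (0.0598) and Etfdh (0.0525) in WT under DSS and of Pdk4 (0.0768) in untreated KO, and changed no other member call. In WT all 6 samples of the DSS comparison correlated best with their own number, a hint from the data, and 0 of 6 did between genotypes. Without a filter Plin2 (0.0917), Acadm, Acadvl and Etfdh missed the threshold in WT under DSS, and DESeq2 added Ppargc1a there (DESeq2 adjusted p = 0.0368) and Acsl1 in KO (0.0421). Depth limits the genes with few reads most, Slc27a2, Pdk4 and Etfb among those tested.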

Other observations

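Acsl3 and Slc27a4 were spread widely within the untreated groups, and in the same samples. Acsl3 had 72.0, 171 and 125 CPM in untreated WT and 130.2, 51.9 and 129 in untreated KO. Slc27a4 had 24.9, 70.5 and 36.5 CPM in untreated WT and 38.0, 19.8 and 41.2 in untreated KO. In both genes WT untreated 2 was the highest and KO untreated 2 the lowest of the 6 untreated samples. These genes were picked out after their values had been seen, and no test was made.

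Among the 6 enzymes that fell in WT under DSS, Etfdh, Acadm, Acaa2 and Acads had all 6 KO samples above the 3 WT samples given DSS, Acaa2 and Acads by a small gap. The enzymes were picked for low values in these same 3 WT samples, so KO values above them are partly built in. No share over all genes is given and no test was made of this pattern. None of the 6 passed in the interaction or between the genotypes under DSS. For Etfdh these were 216, 219.6 and 221 CPM without DSS and 191, 207 and 204 with it, and for Acadm 179, 216 and 189 and 185, 196 and 190.3. For Acaa2 the lowest KO sample had 152.6 CPM and the highest WT sample given DSS 150.7, and for Acads 266.8 and 266.1. Etfa had 330.0, 373 and 335 CPM in KO without DSS and 296, 336 and 306 with it, and Acadvl 164, 168 and 169 and 159.6, 172 and 149.5. In Etfa and Acadvl the KO samples given DSS reached into the range of the WT samples given DSS.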
